A study of Mus musculus with 8 samples.

Results

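Expression of 10 genes of the acute phase and endotoxin response was followed in tissue labelled as brown adipose tissue (BAT) of mice that had received *P. gingivalis*, a Gram-negative bacterium of periodontal disease. They are *Saa3*, *Hp*, *Lbp*, *Cd14*, *Steap4*, *Lrg1*, *Serpina3n*, *Il1r1*, *Osmr* and *Ch25h*. All array spots that carried one of these names were taken, which gave 13 probes of the 56605 on the array, 3 of them for *Osmr* and 2 for *Cd14*. Testing was limited to the 33819 probes whose spots stood well above background on 4 or more arrays. Of these, 12 belonged to these genes and stood for 9 of the 10.

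The Co group was 4 mice that received saline and the Pg group was 4 mice that received sonicated *P. gingivalis* in saline, at an injected volume of 100 μL, with no allele or other agent in either group. All were C57BL/6J mice, 12 weeks old, and by the methods male and assigned at random, and tissue was taken 18 h after the intravenous injection. The sample labels print the dose as 108 CFU, whereas the methods give 10 to the power of 8. Each mouse had 1 one-color Agilent array, named Co1 to Co4 and Pg1 to Pg4 here, and the number of arrays limits the precision.

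When bacterial lipopolysaccharide (LPS) enters the blood, LPS-binding protein carries it to CD14, which hands it to the receptor TLR4 on macrophages and other cells. The interleukin-1 and interleukin-6 families of cytokines then act on their receptors, and the factors NF-κB, STAT3 and C/EBPβ raise the secretion of acute phase proteins, mostly from the liver. Adipose tissue also makes several of these proteins, among them serum amyloid A3, haptoglobin and lipocalin 2.

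Of the 9 genes tested, 0 met the definition of a differentially expressed gene (DEG) in the study, for which the fold change must exceed 1.5 at q below 0.1. Of the 12 probes tested, 0 were called, compared with 1.61% of all probes tested (546 probes, 106 higher and 440 lower in Pg mice). This overall split depended on the processing. It was 137 higher and 146 lower when arrays were scaled to their 75th percentile. Without normalization between arrays it was 20 higher and 7 lower, and with the authors' deposited values 60 higher and 46 lower. At q under 0.1 alone there were 0 of 12, where the share over all probes was 7.82%, and limma's lowest q for a probe of the 10 genes was 0.163. At an unadjusted p under 0.05 there were 3 of 12 probes, one each for *Cd14*, *Osmr* and *Ch25h*, all with the higher mean in Pg mice, and 0 with the lower mean. The corresponding shares over all probes were 6.86% higher and 16.0% lower. The count of 3 depended on single arrays. Without Pg1 the unadjusted p (limma) was 0.0819 for *Cd14*, 0.055 for *Osmr* and 0.101 for *Ch25h*. Without Co1 these were 0.062, 0.0675 and 0.0781. Without Pg1, *Steap4* and *Lrg1*, both with the lower mean in Pg mice, had an unadjusted p of 0.0189 and 0.0237 (limma).

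With the brightest probe standing for each gene, 6 genes had the higher mean in Pg mice and 3 the lower. The median of the 9 log2 differences was 0.098, whereas the median over all 22303 genes tested was -0.014, with 47.2% of them higher in Pg mice. The sign of this median rested on 1 array, since it was -0.16 without Pg1. What set some of the genes apart was the spread between mice of one group. *Hp* and 1 *Cd14* probe had a larger standard deviation in Pg mice than all but 0.6% and 0.429% of the probes tested, respectively. The spread was also large among Co mice, where these shares were 0.778% for *Hp* and 0.662% for the *Osmr* probe A_66_P124309. The *Cd14* spread came from 1 spot on Pg4, and the *Osmr* spread from 1 spot on Co2. Pg1 was the highest Pg array for 9 of the 12 probes tested, and for 26.2% of all probes tested.

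**Figure D1:**
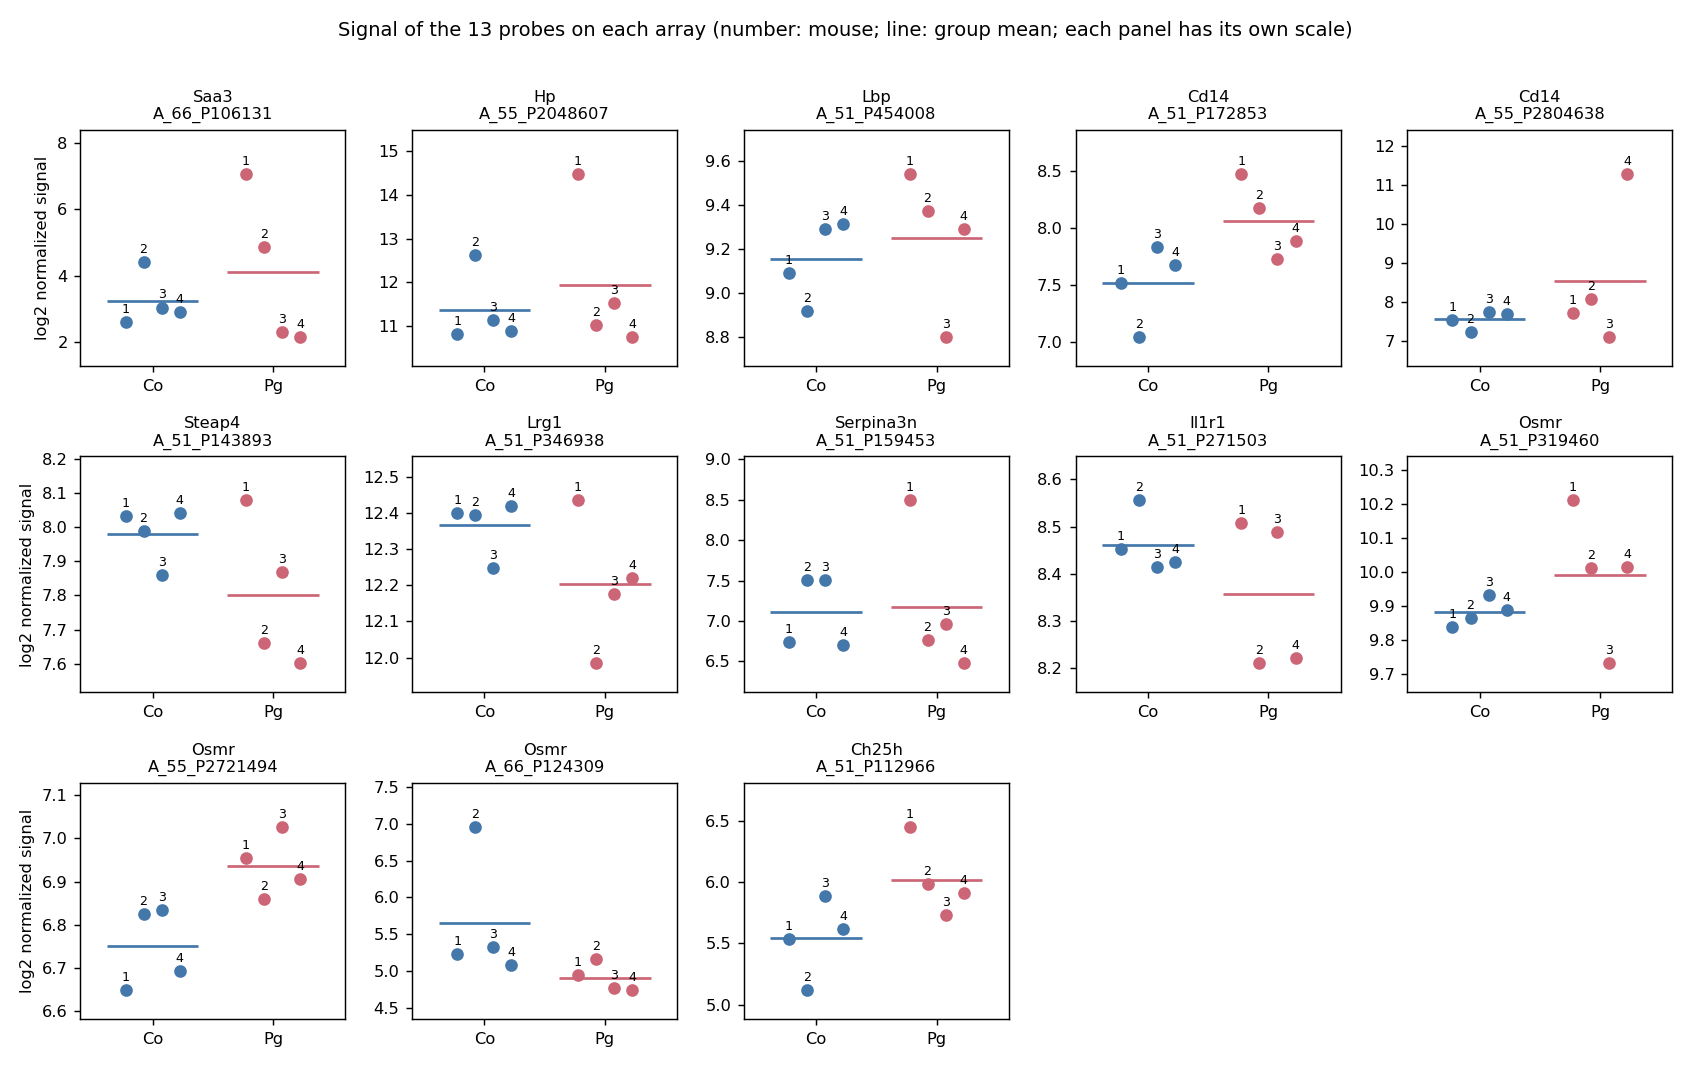
Log2 normalized signal (y axis) of each of the 13 probes in Co and Pg mice (x axis), with 1 numbered point per mouse and a line at the group mean. Only 1 probe, Osmr A_55_P2721494, has groups that do not overlap, and the points for Hp and Saa3 lie far apart within each group.

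The tissue was checked against marker genes. *Ucp1* and *Elovl3*, which mark brown fat, were well above background on 0 of the 8 arrays, although the other 8 of 10 brown adipocyte genes were on all 8, with a summed signal of 468700 to 520300 in Co mice and 514200 to 560300 in Pg mice for the list, of which *Cox8b* and *Cox7a1* made up 96.3% to 97.4%. All 10 skeletal muscle genes were well above background on all 8 arrays, with a summed signal of 2218000 to 2409000 in Co mice and 2127000 to 2386000 in Pg mice. *Tnnt3* and *Tnni2* made up 38.6% to 43.7% of these sums and read 18.81 or 18.84 on all 8 arrays, where quantile normalization gives equal ranks equal values, so that the evenness of the sums is partly set by the normalization. Of the 10 genes, 3 (*Myh4*, *Actn3* and *Pvalb*) were lowest on Co3 among Co mice and on Pg1 among Pg mice, an order found in 6.07% of all probes tested, and the other 7 were not. *Myh4*, a myosin heavy chain, measured 16.09, 16.97, 13.38 and 16.48 in Co mice and 11.38, 17.07, 17.01 and 14.38 in Pg mice. The part of muscle in the results was not tested. Of 9 marker lists, the endothelial one had summed signals that did not overlap (26880 to 32080 in Co mice, 35990 to 38840 in Pg mice). *Egfl7* and *Kdr* made up 63.4% to 70.5% of these sums, and *Pecam1* was lower on all Pg arrays (9.06 to 9.24) than on all Co arrays (9.27 to 9.50). The list had 2 of 8 genes at q under 0.1 and 0 called, and its part in the results was not tested. The red blood cell markers summed to 267900 to 442300 in Co mice and 121700 to 464000 in Pg mice. The liver genes *Apoa1*, *Ttr*, *Fgb* and *Ahsg* were well above background on 0 arrays, and 3 of 10 hepatocyte genes were on all 8. The summed signal of the 10 was 2414 to 2818 in Co mice and 2305 to 2797 in Pg mice. *Apoa2* and *Cyp2e1* made up 85.2% to 94.7% of these sums. The 8 arrays lay on 1 slide in 1 scan, with all Co arrays in its first row and all Pg arrays in its second, so that the row on the slide cannot be told apart from the group. Between 34760 and 35831 probes stood well above background on Co arrays and between 31132 and 34064 on Pg arrays.

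The probes are 60 bases long. The first 30 bases are shown for *Hp*, *Saa3* and *Serpina3n*, the secreted proteins whose values on Pg1 stood farthest above the other Pg arrays, for *Ch25h*, which had the smallest p among the probes standing for a gene, and for the 3 *Osmr* probes, which did not give the same direction. Positions are those of the array files, on build mm9.
Hp, A_55_P2048607, minus strand, chr8:112099045-112099104: aagggttgggctatactctgatgggttcta
Saa3, A_66_P106131, minus strand, chr7:53967559-53967618: gttcagaagttcacgggacatggagcagag
Serpina3n, A_51_P159453, plus strand, chr12:105651918-105651977: ttggcatgcctggattagatagtgactaac
Ch25h, A_51_P112966, minus strand, chr19:34548418-34548477: ctatgtatgaaatcgcactggaactgggct
Osmr, A_51_P319460, minus strand, chr15:6763686-6763745: attgcagatgctctgtttacattttcttgt
Osmr, A_66_P124309, minus strand, chr15:6791978-6792037: caggaaatgtataactttactctcacagct
Osmr, A_55_P2721494, minus strand, chr15:6804987-6805046: gggtgtagacctaggaatctcattgctggg

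The secreted proteins come first. *Hp* encodes haptoglobin, which binds free hemoglobin in plasma. Its log2 signal was 10.83, 12.63, 11.15 and 10.89 on Co1 to Co4 and 14.49, 11.02, 11.54 and 10.76 on Pg1 to Pg4. Pg1 lay above every other array and Co2 came next, while the other 6 arrays were close together and the groups overlapped. The highest Pg array was 13.2-fold above the lowest, and the highest Co array 3.47-fold above the lowest. The mean was 11.37 ± 0.85 in Co mice and 11.95 ± 1.72 in Pg mice (SD, n = 4 each), a log2 difference of 0.58 with a standard error of 0.84 and a 95% interval from -1.37 to 2.52 (limma, q = 0.718). Without Pg1 the difference was -0.27.

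*Saa3* encodes serum amyloid A3, the form made outside the liver by macrophages and fat cells of the mouse. Its log2 signal was 2.62, 4.41, 3.05 and 2.91 in Co mice and 7.07, 4.88, 2.30 and 2.17 in Pg mice, in the order of the array numbers. The probe was well above background on Co2, Pg1 and Pg2 only, so that it was measured on 1 of 4 Co arrays and 2 of 4 Pg arrays and was not tested with the others. Those 3 arrays hold its 3 highest values, with Pg1 the highest, and the values on the other 5 arrays have no order. No difference between the groups is given for this reason.

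*Serpina3n* encodes a secreted serine protease inhibitor of the antichymotrypsin family. Its log2 signal was 6.74, 7.51, 7.50 and 6.71 in Co mice and 8.49, 6.76, 6.96 and 6.48 in Pg mice. Pg1 was again the highest array, and the remaining Pg arrays lay within or below the Co values. The difference was 0.06 ± 0.44 (SE) with an interval from -0.97 to 1.09 (limma, q = 0.948). It was -0.38 without Pg1.

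*Lrg1*, which encodes a secreted leucine-rich glycoprotein, was bright in every mouse. It measured 12.40, 12.39, 12.25 and 12.42 in Co mice and 12.43, 11.98, 12.18 and 12.22 in Pg mice. Pg2, Pg3 and Pg4 lay below all Co arrays and Pg1 above them. The difference of -0.16 had an interval from -0.39 to 0.07 on the log2 scale (limma, q = 0.367), which corresponds to 0.764-fold to 1.05-fold. It was -0.24 without Pg1 and -0.09 without Pg2.

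*Lbp* encodes LPS-binding protein, which carries LPS to CD14. Its probe crosses an intron, as its 60 bases reach from 158154142 to 158157684 on chromosome 2 (mm9, plus strand). The log2 signal was 9.09, 8.92, 9.29 and 9.31 in Co mice and 9.54, 9.37, 8.80 and 9.29 in Pg mice. The groups overlapped, with both the highest and the lowest value in Pg mice. The difference was 0.10 with an interval from -0.29 to 0.48 (limma, q = 0.760), or 0.819-fold to 1.398-fold. It was 0.001 without Pg1, 0.02 without Co2 and 0.25 without Pg3.

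*Cd14* encodes the LPS coreceptor of monocytes, macrophages and neutrophils, and its 2 probes lie on chromosome 18, within the same transcript. The probe A_51_P172853 measured 7.52, 7.05, 7.83 and 7.68 in Co mice and 8.47, 8.17, 7.73 and 7.88 in Pg mice. Pg1, Pg2 and Pg4 lay above all Co arrays, and Pg3 lay below Co3. The mean was 7.52 ± 0.34 in Co mice and 8.06 ± 0.33 in Pg mice (SD, n = 4 each), and the difference was 0.55 ± 0.21 (SE) with an interval from 0.06 to 1.04 (limma, unadjusted p = 0.0329, q = 0.179). The exact permutation test, two-sided over 70 splits, gave p = 0.0571 for this probe, with a smallest possible p of 0.0286. Without Co2 and Pg1 the difference was 0.25.

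The second *Cd14* probe, A_55_P2804638, was the brighter one on average and therefore stood for the gene. It measured 7.52, 7.23, 7.75 and 7.70 in Co mice and 7.71, 8.07, 7.10 and 11.28 in Pg mice. Only the spot on Pg4 was far from the rest, whereas the first probe on the same array read 7.88. Its processed signal before normalization was 2424 on Pg4 and 136 to 279 on the other Pg arrays, and the standard deviation of its pixels was 0.41 of their mean on Pg4 and 0.145 to 0.223 on the other 7 arrays. The spot carried no outlier or non-uniformity mark. The difference of 0.99 had a standard error of 0.83 (limma, q = 0.512), and it was 0.08 without Pg4. The 2 probes therefore gave the same sign, and the larger value came from 1 spot.

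*Il1r1* encodes the signaling receptor for interleukin-1. It measured 8.45, 8.56, 8.41 and 8.43 in Co mice and 8.51, 8.21, 8.49 and 8.22 in Pg mice. Pg2 and Pg4 lay below all Co arrays and the other 2 Pg arrays lay among them. The difference was -0.10 with an interval from -0.31 to 0.10 (limma, q = 0.521), or 0.807-fold to 1.07-fold. It was -0.16 without Pg1 and -0.06 without Pg2.

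*Osmr* encodes the receptor subunit that joins gp130 to bind oncostatin M, a cytokine of the interleukin-6 family. Its brightest probe, A_51_P319460, measured 9.84, 9.87, 9.93 and 9.89 in Co mice and 10.21, 10.01, 9.73 and 10.02 in Pg mice. Pg3 lay below all Co arrays and the other Pg arrays above them, and the difference was 0.11 with an interval from -0.12 to 0.34 (limma, q = 0.538). It was 0.038 without Pg1 and 0.197 without Pg3. The probe A_55_P2721494, designed on another transcript, measured 6.65, 6.83, 6.84 and 6.69 in Co mice and 6.95, 6.86, 7.03 and 6.91 in Pg mice. All Pg arrays lay above all Co arrays, which was so for 1 of the 12 probes, whereas 4.83% of all probes tested had groups apart in this direction. The difference was small, at 0.19 ± 0.07 (SE) with an interval from 0.03 to 0.34 on the log2 scale, or 1.14-fold (limma, unadjusted p = 0.0263, q = 0.163). With scaling to the 75th percentile the q of this probe was 0.0849 and its difference 0.28, still under the fold limit. Other processing weakened it. The difference was 0.108 from the normexp-corrected mean signal (limma, unadjusted p = 0.0684) and 0.115 from the median signal (limma, unadjusted p = 0.0763).

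The third *Osmr* probe, A_66_P124309, was dim. It measured 5.23, 6.96, 5.32 and 5.09 in Co mice and 4.95, 5.16, 4.78 and 4.75 in Pg mice, and was not well above background on Pg3. The value on Co2 stood apart from the other Co values, and the pixels of that spot had a standard deviation of 0.567 of their mean, compared with 0.189 to 0.263 on the other arrays. The difference was -0.74 ± 0.40 (SE; limma, q = 0.307) and -0.30 without Co2. The 3 probes of *Osmr* thus gave 2 positive and 1 negative difference, and none of them passed the test.

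*Steap4* encodes a metalloreductase of fat cells that reduces iron and copper. It measured 8.03, 7.99, 7.86 and 8.04 in Co mice and 8.08, 7.66, 7.87 and 7.60 in Pg mice. Pg2 and Pg4 lay below all Co arrays and Pg1 above them. The difference was -0.18 with an interval from -0.43 to 0.08 (limma, q = 0.379), or 0.740-fold to 1.06-fold. It was -0.27 without Pg1 and -0.11 without Pg4.

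*Ch25h* encodes cholesterol 25-hydroxylase, which makes the oxysterol 25-hydroxycholesterol and is known as a gene that macrophages switch on after LPS. It measured 5.53, 5.12, 5.89 and 5.61 in Co mice and 6.45, 5.98, 5.73 and 5.91 in Pg mice. As with the first *Cd14* probe, 3 of 4 Pg arrays lay above all Co arrays, and Pg3 lay below Co3. The mean was 5.54 ± 0.32 in Co mice and 6.02 ± 0.31 in Pg mice (SD, n = 4 each). The difference was 0.48 ± 0.20 (SE) with an interval from 0.02 to 0.94, or 1.39-fold (limma, unadjusted p = 0.0428, q = 0.203), and the exact permutation test, two-sided, gave p = 0.0571. Without Co2 and Pg1 it was 0.20, and with all arrays it was 0.23 from the normexp-corrected mean signal and 0.27 from the median signal.

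**Figure D2:**
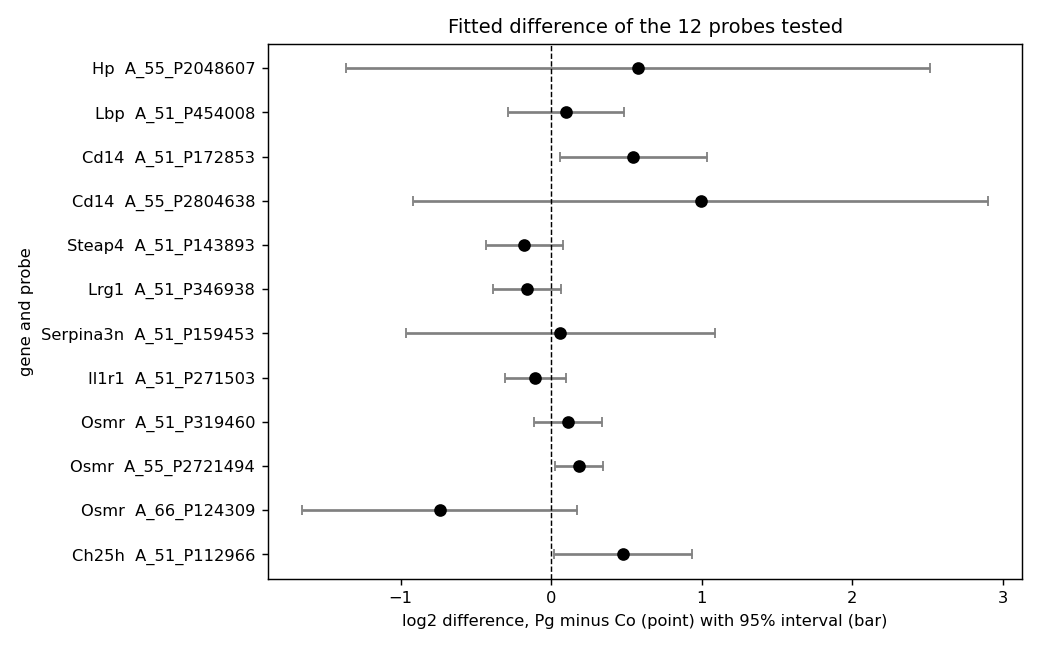
Log2 difference, Pg minus Co (x axis), for the 12 probes tested, with gene and probe on the y axis, a point for limma's estimate and a bar for its 95% interval. The intervals of 9 probes include 0, and those of Cd14 A_51_P172853, Osmr A_55_P2721494 and Ch25h lie above 0 before adjustment over all probes.

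The genes were next compared by how they varied between mice of the same group, as Pearson's r over the 8 arrays of the deviations from the group means. These values are a description, since all genes share the same 8 arrays and their normalization. *Cd14* (A_51_P172853) and *Ch25h* varied together (r = 0.969), with Co2 lowest and Co3 highest among Co mice, and Pg3 lowest and Pg1 highest among Pg mice. The value was 0.958 without Pg1. The probe that stood for *Cd14*, A_55_P2804638, did not vary with *Ch25h* (r = -0.002) or with A_51_P172853 (r = -0.06). Co3 and Pg1, where *Cd14* (A_51_P172853) and *Ch25h* were highest, are the arrays on which *Myh4*, *Actn3* and *Pvalb* were lowest. These are 3 of the 10 muscle genes. Of 5 neutrophil markers, *S100a8* and *S100a9* were highest on both arrays and *Camp* was lowest on both, and 6.2% of all probes tested were highest on both. The part of these markers in the values was not tested. *Hp* varied with *Serpina3n* (r = 0.939, and 0.738 without Pg1), and no r is given for *Saa3*, which was not well above background on 5 of the 8 arrays. *Lbp* varied with the brightest *Osmr* probe (r = 0.894), and *Il1r1* with *Steap4* (r = 0.836).

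Among the genes well above background on all 8 arrays, those most like *Ch25h*, the representative probe with the smallest p, were *Rgs16*, a regulator of G protein signaling (r = 0.99), *Fgl2*, a fibrinogen-like protein of macrophages (r = 0.988), *Tmem238* (r = 0.972) and 2 noncoding probes (r = 0.958 each). *Rgs16* measured 6.92, 6.33, 7.42 and 7.02 in Co mice and 8.41, 7.71, 7.55 and 7.65 in Pg mice. Its groups did not overlap, and its difference was 0.91 (limma, q = 0.106). *Fgl2* differed by 0.23 (limma, q = 0.514) and *Tmem238* by -0.05 (limma, q = 0.760).

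**Figure D3:**
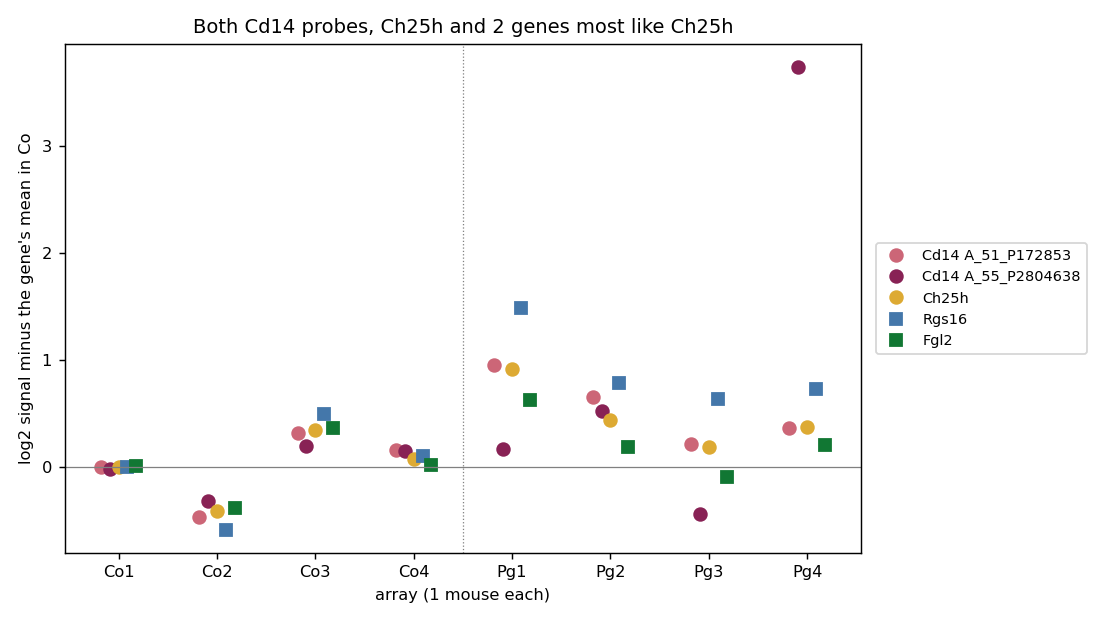
Log2 signal minus the gene's mean in Co mice (y axis) on each of the 8 arrays (x axis) for the 2 Cd14 probes and Ch25h (circles) and for Rgs16 and Fgl2 (squares). Cd14 A_51_P172853, Ch25h, Rgs16 and Fgl2 are lowest on Co2 among Co mice and highest on Pg1 among Pg mice, and Cd14 A_55_P2804638 is far above all others on Pg4.

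The 5 genes most like *Hp*, taken after its values were seen, were led by *Serpina3m*, a neighbor of *Serpina3n* in the same inhibitor cluster (r = 0.993, and 0.971 without Pg1). It measured 7.61, 8.32, 7.86 and 7.75 in Co mice and 9.03, 7.61, 7.87 and 7.64 in Pg mice. Next came a probe named only by its transcript (r = 0.989), with a difference of -0.44 (limma, q = 0.0865), *Sptbn5* (r = 0.981), with a difference of 0.22 (limma, q = 0.658), and *Pacc1* (r = 0.98), with a difference of 0.05 (limma, q = 0.674). *Wfdc21*, a secreted protein with a protease inhibitor domain, was the last of the 5 (r = 0.976, and 0.896 without Pg1). It measured 7.15, 7.95, 7.18 and 7.15 in Co mice and 8.82, 6.52, 7.33 and 6.46 in Pg mice. *Serpina3m* and *Wfdc21* were highest on Pg1, with Co2 next, and differed between the groups by 0.15 (limma, q = 0.812) and -0.07 (limma, q = 0.946).

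Some markers of other cells were high on the same arrays as these genes. *Cidec*, which encodes a protein of lipid droplets, measured 10.12, 12.24, 10.17 and 10.07 in Co mice and 11.81, 9.91, 10.36 and 10.56 in Pg mice. *Retn*, which encodes the adipokine resistin, measured 9.20, 10.40, 9.56 and 9.16 in Co mice and 10.58, 8.98, 9.32 and 9.78 in Pg mice. Both were highest on Co2 among Co mice and on Pg1 among Pg mice, as were *Adipoq* and *Plin1*, and so were *Hp*, *Saa3*, *Serpina3n* and *Il1r1*. Over all probes tested, 6.45% had this order. The other 5 of the 9 adipocyte markers well above background on all 8 arrays were not. The 10 adipocyte markers summed to 156600 to 169900 in Co mice and 148200 to 177300 in Pg mice, but *Fabp4* and *Pnpla2* made up 92.8% to 97% of these sums. With the summed signal of the list, r was 0.183 for *Hp* and 0.0641 for *Serpina3n*. Over the 9 marker lists r ranged from -0.614 (macrophage and monocyte) to 0.324 (neutrophil) for *Hp* and from -0.59 (macrophage and monocyte) to 0.198 (brown adipocyte) for *Serpina3n*.

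Among neutrophil genes, *S100a8* measured 4.56, 5.20, 5.33 and 5.09 in Co mice and 8.59, 8.32, 5.18 and 6.76 in Pg mice, and *S100a9* 6.60, 6.52, 7.27 and 6.57 in Co mice and 10.56, 10.17, 6.99 and 7.39 in Pg mice. Pg1 and Pg2 were the highest Pg arrays for these and for *Ly6g*, which made 3 of the 5 neutrophil markers well above background on all 8 arrays, whereas *Csf3r* and *Camp* were highest on Pg3. Pg1 and Pg2 were also the highest Pg arrays for *Saa3*, *Lbp*, *Cd14* (A_51_P172853), *Ch25h* and the dim *Osmr* probe A_66_P124309, and for 15.3% of all probes tested. *Ngp* and *Ltf* were well above background on 0 arrays. The summed signal of the 10 neutrophil markers was 40160 to 50240 in Co mice and 47610 to 55110 in Pg mice, of which *Csf3r* and *Ly6g* made up 97.8% to 99.4%. The 12 macrophage and monocyte markers summed to 57020 to 63810 in Co mice and 55010 to 76800 in Pg mice, of which *Ly6c2* and *Lyz2* made up 88.2% to 93.4%, with 11 of 12 well above background on all 8 arrays. The part of these cells in the values above was not tested, and in whole tissue fewer cells of a type and less RNA per cell cannot be told apart.

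**Figure D4:**
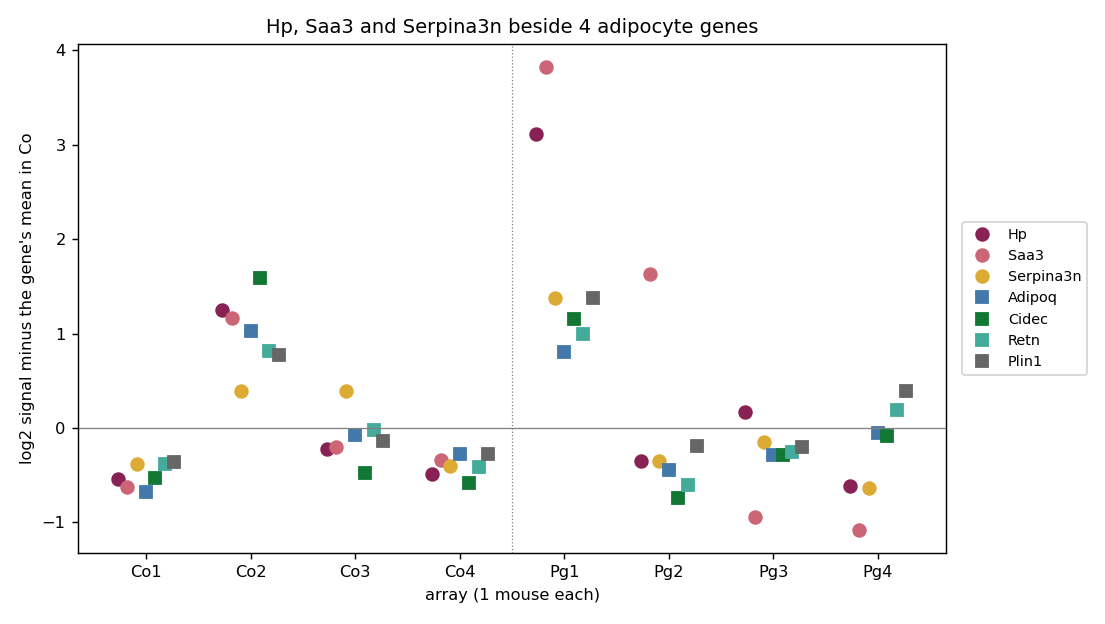
Log2 signal minus the gene's mean in Co mice (y axis) on each of the 8 arrays (x axis) for Hp, Saa3 and Serpina3n (circles) and for Adipoq, Cidec, Retn and Plin1 (squares), the adipocyte genes chosen because they peak on the same arrays. All 7 genes are highest on Co2 among Co mice, where Serpina3n is about as high on Co3, and on Pg1 among Pg mice.

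The genes around the 10 were examined by pathway list. Of 120 genes in 7 lists, 119 were on the array and 92 were tested. In Pg mice 47 of these had the higher and 45 the lower mean, with a median log2 difference of 0.01, and 0 were DEGs. At q under 0.1 there were 3 higher and 2 lower genes, and 13 genes had an unadjusted p under 0.05, where the share over all genes tested was 20.3%. Over all genes tested, 6.23% had a q under 0.1, a share close to 5 of 92. The 5 depended on single arrays, as there were 0 without any one of the Co arrays, 2 without Pg1, 1 without Pg2, 1 without Pg4 and 9 without Pg3.

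The cytokine signaling that acts through gp130 held 2 of the 5. *Pias3*, which encodes an inhibitor of STAT3, measured 7.31, 7.27, 7.30 and 7.38 in Co mice and 6.69, 7.001, 6.92 and 7.002 in Pg mice, a difference of -0.41 ± 0.08 (SE; limma, q = 0.0573). *Timp1*, an inhibitor of matrix metalloproteinases, measured 9.36, 9.54, 9.95 and 9.36 in Co mice and 10.24, 10.23, 9.95 and 10.05 in Pg mice, a difference of 0.57 ± 0.14 (SE; limma, q = 0.0807). The groups did not overlap for *Pias3* and nearly touched for *Timp1*. *Bcl3*, a nuclear partner of NF-κB, differed by 0.78 (limma, q = 0.149). Of 21 genes in this list 19 were tested, 9 higher and 10 lower, and *Il6* and *Osm*, which encode the ligands, were not tested.

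Among the transcription factors of the acute phase response, *Rela*, the p65 subunit of NF-κB, was the gene with a q under 0.1. It measured 12.50, 12.36, 12.39 and 12.43 in Co mice and 12.78, 12.86, 12.53 and 12.70 in Pg mice, a difference of 0.29 ± 0.08 (SE; limma, q = 0.0930) with groups that did not overlap. *Relb* differed by 0.24 (limma, q = 0.134) and *Cebpb*, which encodes C/EBPβ, by -0.30 (limma, q = 0.154). Of 16 factors 14 were tested, 7 higher and 7 lower.

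Of the 12 oxysterol genes around *Ch25h* all were tested, 6 higher and 6 lower. *Hsd3b7*, an enzyme that acts on oxysterols in bile acid synthesis, measured 10.54, 10.64, 10.48 and 10.41 in Co mice and 10.88, 11.04, 10.77 and 10.83 in Pg mice, a difference of 0.36 ± 0.08 (SE; limma, q = 0.0650). *Srebf2*, the regulator of cholesterol synthesis genes, measured 10.32, 10.36, 10.16 and 10.20 in Co mice and 10.02, 9.92, 9.84 and 10.02 in Pg mice, a difference of -0.31 ± 0.07 (SE; limma, q = 0.0702). The groups did not overlap for either gene. *Nr1h2*, which encodes an oxysterol receptor, differed by 0.15 (limma, q = 0.184).

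The other 4 lists held 0 genes with a q under 0.1. Of the 30 other acute phase genes, mostly of secreted proteins, 15 were tested. In Pg mice 6 of the 15 had the higher and 9 the lower mean, and their median log2 difference was -0.01. The 9 include the metallothionein genes *Mt1* and *Mt2*, whose products are not secreted acute phase proteins. *Serping1*, the inhibitor of complement C1, differed by 0.30 (limma, q = 0.300), *C3* by 0.64 (limma, q = 0.307) and *Cp*, ceruloplasmin, by 0.14 (limma, q = 0.507). The 3 fibrinogen genes *Fga*, *Fgb* and *Fgg*, together with *Apcs*, *Hamp* and *Hpx*, were too dim to be tested. Of the 17 genes of LPS recognition and TLR4 signaling 14 were tested, 10 higher and 4 lower. The smallest p were those of *Irak2*, a kinase of this pathway, at -0.17 (limma, q = 0.1603), *Traf6*, its ubiquitin ligase, at 0.17 (limma, q = 0.217), and *Plscr1* at 0.15 (limma, q = 0.260).

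Of the 13 genes of the interleukin-1 family 8 were tested, 4 higher and 4 lower. *Il1a* and *Il1b*, the ligands of the *Il1r1* product, were not tested. *Tollip* and *Sigirr*, both known as restraints on this receptor family, differed by -0.14 (limma, q = 0.172) and 0.18 (limma, q = 0.234), and *Il1rap*, the partner chain of the receptor, by -0.34 (limma, q = 0.350). Of 12 STEAP and haptoglobin partner genes 10 were tested, 5 higher and 5 lower. *Slc11a2*, an iron transporter, differed by 0.21 (limma, q = 0.204), *Steap2* by -0.35 (limma, q = 0.441) and *Ftl1*, ferritin light chain, by 0.14 (limma, q = 0.459).

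**Figure D5:**
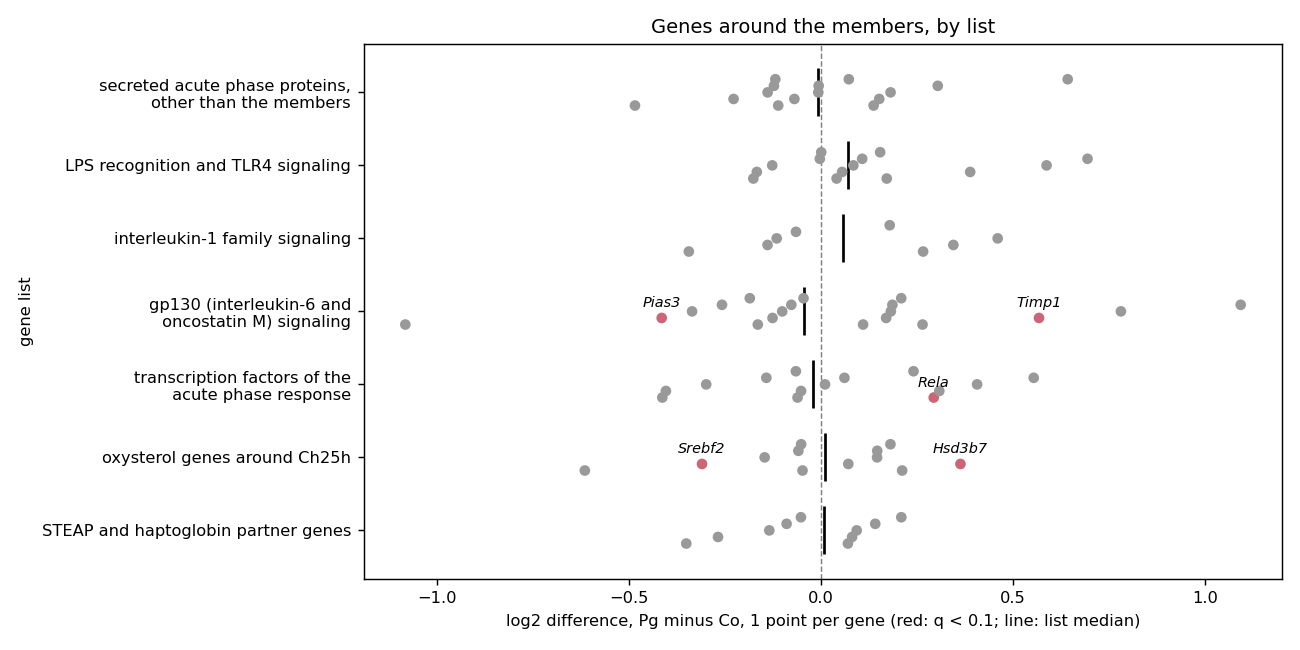
Log2 difference, Pg minus Co (x axis), of the tested genes of 7 lists (y axis), with 1 point per gene, red points for a q under 0.1 and a line at the median of each list. In all, 5 genes have a q under 0.1 (Pias3 and Srebf2 lower, Timp1, Rela and Hsd3b7 higher in Pg mice), and the medians of the 7 lists lie between -0.05 and 0.07.

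The 250 bases before the start of the genes were searched on both strands for 3 sites of the factors named above. These were a C/EBP site (TTNNGCAA), a STAT site (TTCNNNGAA) and a restricted form of the κB site of NF-κB. That form fixes bases that the κB consensus leaves variable, so that other κB sites were not searched for. RefSeq windows on GRCm38.p6 were held for 7 of the 10 genes. The C/EBP letters were in a window of 4 of them (*Saa3*, *Steap4*, *Il1r1* and *Ch25h*), the STAT letters in 1 (*Steap4*) and the NF-κB letters in 0. Of all 32851 windows of this length, 9.56%, 7.02% and 0.98% held them. The windows of *Ch25h* and *Steap4* are shown because they end at the annotated start of the gene and hold a match, with the matches in capitals. The C/EBP match began 112 bases before the start of *Ch25h* and 87 bases before that of *Steap4*, where the STAT match began at 116. A match is a sequence feature and binding was not measured.
Ch25h, minus strand, chr19:34475149-34475398: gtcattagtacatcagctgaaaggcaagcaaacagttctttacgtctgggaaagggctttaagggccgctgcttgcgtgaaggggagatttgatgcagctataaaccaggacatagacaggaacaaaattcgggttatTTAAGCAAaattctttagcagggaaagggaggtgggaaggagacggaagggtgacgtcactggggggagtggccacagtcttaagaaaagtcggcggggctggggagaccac
Steap4, plus strand, chr5:7960222-7960471: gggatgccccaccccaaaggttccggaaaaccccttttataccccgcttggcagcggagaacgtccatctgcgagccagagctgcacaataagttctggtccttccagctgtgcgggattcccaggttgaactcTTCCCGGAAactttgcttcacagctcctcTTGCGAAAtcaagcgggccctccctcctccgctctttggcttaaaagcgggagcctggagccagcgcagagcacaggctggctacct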

How the data were processed

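The authors deposited, per the file headers, the Cy3 intensity of every spot from Feature Extraction 11.0.1.1, corrected for background and spatial trend within each array, using surrogate values at the low end, and not normalized between arrays. The authors also deposited 28067 quantile-normalized log2 values per array (column medians 8.08 to 8.10), 1 per accession. That table also holds the authors' log2 fold changes, p-values, q-values and score columns, which were not used. The deposited table has 1 entry for *Cd14*, close to the mean of its 2 probes.

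Of 59305 spots, population outliers (90 to 150 per array) were left out. Processed intensities were averaged per probe, quantile-normalized, raised to at least 1 and log2-transformed. Quantile normalization removes any shift shared by all probes of an array. Probes well above background on at least 4 of 8 arrays entered the two-sided moderated test of limma 3.58.1 (R 4.3.3) with Benjamini-Hochberg adjustment over all probes tested, after the code was tested on simulated data. For lists, the brightest probe stood for a gene. Gene symbols came through RefSeq accessions for 32994 of 56605 probes, otherwise from the array. Genes were named by rule: all 10 genes, and in each list those with a q under 0.1 and the 3 smallest p, with 5 genes most like the gene of smallest p. The adipocyte, neutrophil, muscle and endothelial genes and the genes like *Hp* were chosen after their values were seen. The 10 genes and the lists were chosen with earlier results of these data known. The labels number the samples of a group without naming mice. The p-values set the difference between the groups against the spread between these samples. Alternatives were other signals, scalings, filters and tests, the authors' values, a replicate block, and each array left out. Leaving out Co2 and Pg1 together was added after seeing the data.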

Additional observations from a re-analysis of the deposited data

Results flagged for a closer look

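In groups of 4 arrays, a value was singled out when its gap to the nearest other value exceeded Dixon's 95% critical share of the group's range. This was so in 2 of 26 groups examined, where chance gives about 1 in 20. The *Lrg1* value of 12.25 on Co3 lay below the other Co values (12.39 to 12.42) at a gap of 0.847 of the range. The *Osmr* value of 6.96 on Co2, from probe A_66_P124309, lay above the other Co values (5.09 to 5.32) at a gap of 0.874 of the range.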

How the results depend on the processing

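None of the probes of the 10 genes was called under any alternative run. Of 165 values of single genes under the alternatives, 157 kept their sign and 8 reversed it. The deposited values gave -0.13 for *Osmr*, whose entry lies about 1.9 below its brightest probe and 0.43 above the mean of the 2 probes of its accession, and probe A_66_P124309 gave -0.74. *Hp* ranged from -0.27 to 0.99 and *Serpina3n* from -0.38 to 0.29 with each array left out, reversed without Pg1 for both (-0.27 and -0.38) and without Co1 (-0.07) and Co4 (-0.07) for *Serpina3n*. With Co2 and Pg1 both left out, *Lbp* gave -0.076 and *Serpina3n* -0.25. The median of the 9 genes ranged from -0.16 to 0.20 with each array left out and was -0.08 without Co2 and Pg1.

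The count of all probes called, 546 as reported, was 94 with normexp on the mean signal, 108 with the median signal, 283 with 75th percentile scaling, 27 without normalization, 318 for probes well above background on all 8 arrays, 106 with the authors' values and 1 without Co2 and Pg1. It ranged from 3 to 698 with each array left out. The count of pathway genes with a q under 0.1, 5 as reported, was 3 with 75th percentile scaling, 0 without normalization, 3 without a filter, 2 with the authors' values and 0 without Co2 and Pg1, and ranged from 0 to 9 with each array left out. The split between higher and lower calls was 66 and 28 with normexp, 75 and 33 with the median signal, 20 and 7 without normalization, 107 and 211 for probes well above background on all 8 arrays, and 60 and 46 with the authors' values. The cause of these shifts was not tested. The same replicate numbers did not pair the mice (r of deviations 0.06, -0.03, -0.07 and 0.18 for numbers 1 to 4, and 2 of 4 Co arrays correlated best with their own number), and a fit with the replicate block called 0 probes in all and 0 pathway genes. *Saa3* was near background on 5 of 8 arrays, where its order has no meaning.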
